A study of Mus musculus with 4 samples.

Results

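Under the heading of cholesterol synthesis and LDL uptake, 7 genes were followed, out of 30228 named on the arrays. They were Srebf2, Hmgcs1, Idi1, Sqle, Lss, Cyp51 and Insig1. The choice was by gene name, as the transcription factor SREBP2 and a set of its textbook targets. The rule sets no threshold on a measured value. None of the 7 is an LDL uptake gene, and LDL uptake was read from a separate list of 10 genes. Liver RNA came from C57BL/6N mice in 4 groups: Pnpla7-/- (KO) at 6 weeks, Pnpla7+/+ (WT) at 6 weeks, KO at 3 weeks and WT at 3 weeks. PNPLA7 is a lysophospholipase. The labels give no other allele or treatment. Each group was 1 pool of equal amounts of RNA from 5 livers on 1 one-colour Agilent array, and all 4 arrays lay on 1 slide. The spread between animals is therefore not measured, no single difference between arrays can be tested, and effects of array position cannot be told apart from those of group.

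Liver cells make cholesterol from acetyl-CoA through the mevalonate pathway, and also take it up from the blood as LDL. When sterols in the endoplasmic reticulum run low, the escort protein SCAP carries SREBP2 to the Golgi, where it is cut and its free part enters the nucleus to switch on the genes of both routes. When sterols are plentiful, INSIG proteins hold SCAP in place and the pathway is quiet. Suckling mice receive cholesterol with milk, and weaning onto solid food falls at about the younger of the ages studied.

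SREBP2 reads its targets through sterol regulatory elements, usually near the start of the gene and beside sites for the factor NF-Y, which binds CCAAT boxes. The 250 bases upstream of the annotated start were available from RefSeq (GRCm38.p6) for 6 of the 7 genes, all but Sqle. Of these 6 windows, those of Idi1, Lss and Insig1 hold no match to TCACNNCA, the sterol-element pattern searched. Other forms of the element were not searched. The windows of 4 genes are shown: the 3 that hold a match to TCACNNCA, and Insig1, whose signal ran apart from the others. Each reads 5′ to 3′ on the gene's own strand, with matches to TCACNNCA (which takes in TCACNCCA) and to CCAAT, on either strand, in capitals.
Srebf2: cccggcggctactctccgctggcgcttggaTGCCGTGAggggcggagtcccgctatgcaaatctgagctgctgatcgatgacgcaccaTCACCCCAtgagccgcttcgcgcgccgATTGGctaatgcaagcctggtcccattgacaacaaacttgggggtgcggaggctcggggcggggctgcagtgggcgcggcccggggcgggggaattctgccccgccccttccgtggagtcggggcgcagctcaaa
Hmgcs1: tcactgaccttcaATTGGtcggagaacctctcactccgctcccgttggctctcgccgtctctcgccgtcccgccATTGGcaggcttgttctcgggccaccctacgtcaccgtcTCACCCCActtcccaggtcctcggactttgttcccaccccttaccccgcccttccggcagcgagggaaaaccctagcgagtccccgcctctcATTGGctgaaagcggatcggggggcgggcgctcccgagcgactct
Cyp51: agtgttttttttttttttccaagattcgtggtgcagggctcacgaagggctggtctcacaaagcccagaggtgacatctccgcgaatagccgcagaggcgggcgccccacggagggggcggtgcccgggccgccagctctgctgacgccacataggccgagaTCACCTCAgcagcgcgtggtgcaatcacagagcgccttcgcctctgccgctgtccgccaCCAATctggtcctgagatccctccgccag
Insig1: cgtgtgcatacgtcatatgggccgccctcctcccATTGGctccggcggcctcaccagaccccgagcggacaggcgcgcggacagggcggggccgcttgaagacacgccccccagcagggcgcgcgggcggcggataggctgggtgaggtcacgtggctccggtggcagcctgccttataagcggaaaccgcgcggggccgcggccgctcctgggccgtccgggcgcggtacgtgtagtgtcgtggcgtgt
The Srebf2 window lies at chr15:82147019-82147268 on the plus strand and the Hmgcs1 window at chr13:119690101-119690350 on the plus strand. The Cyp51 window lies at chr5:4104698-4104947 on the minus strand and the Insig1 window at chr5:28071162-28071411 on the plus strand. TCACNCCA was found in the windows of Srebf2 and Hmgcs1, 2 of 6, and in 1 of 12 other cholesterol synthesis genes with a window, against 3.67% of 32851 promoters of the same length. TCACNNCA was found in 3 of 6, with Cyp51 added, and in 5 of 12 of the others, against 11.4% of all promoters. CCAAT was found in 6 of 6, and in 11 of 12 of the others, against 33.8% of all promoters. In Hmgcs1 a CCAAT match lay from 176 to 172 bases upstream of the start and the TCACNCCA match from 137 to 130. In Srebf2 the TCACNCCA match lay from 162 to 155 bases upstream and the CCAAT match from 135 to 131. These are matches of letters and not measured binding sites, and their relation to the signals was not tested.

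Signals are given relative to the 75th percentile of the array over all non-control spots, and ratios as log2. On each of the 4 arrays, all 7 genes were well above background. The scanner software put the error of a spot at about 10% of its signal, which gives a log2 ratio an error of 0.20 for a single spot. Among 164 probes printed as 10 spots, the median SD of a log2 ratio between spots was smaller, from 0.09 to 0.12. Neither error covers differences between pools of mice.

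The arrays stood apart in several ways that touch every ratio. The Pnpla7 probe read 4.42 in KO and 9.65 in WT at 6 weeks, and 6.70 in KO and 7.54 in WT at 3 weeks, so it does not establish the genotype of the pools, and KO and WT follow the labels throughout. Of 12 skeletal muscle markers, 11 at 6 weeks and 12 at 3 weeks were at least 2-fold higher in KO, with a summed signal of 42.5 in KO and 2.74 in WT at 6 weeks and 66.5 in KO and 1.92 in WT at 3 weeks. Of 10 hepatocyte markers none was at least 2-fold apart between KO and WT at 6 weeks and 1 was lower in KO at 3 weeks. That 1 marker was dim, at 0.009 in KO and 0.186 in WT at 3 weeks, and well above background on only 3 arrays. The summed signal of the hepatocyte markers was 1194 in KO and 1047 in WT at 6 weeks, and 1078 in KO and 1089 in WT at 3 weeks. All 6 markers of dividing cells were at least 2-fold lower in KO at 6 weeks, with a sum of 0.464 in KO against 2.12 in WT, and none was at 3 weeks, with 5.51 in KO against 7.99 in WT. All 7 Kupffer cell markers had ratios below 0 in KO at 6 weeks, 3 of them at least 2-fold lower, with a sum of 27.4 in KO against 50.05 in WT, and none was 2-fold apart at 3 weeks, with 53.7 in KO against 60.4 in WT. Of 7 endothelial markers, 3 were at least 1.5-fold lower in KO at 6 weeks, against 10.4% of all genes, and none at 3 weeks. At 6 weeks 2 of the 7 had ratios above 0, and the endothelial median was -0.27. In such bulk RNA, fewer cells of a type and less RNA per cell cannot be told apart.

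Between the ages, the 7 genes were lower at 6 weeks than at 3 weeks in WT and, with the exception of Insig1, in KO. Of all genes, 43.9% had a ratio of 6 over 3 weeks below 0 in KO and 48.4% in WT. The 4 enzymes Idi1, Sqle, Lss and Cyp51 were at least 2-fold lower at 6 weeks in WT, which 5.47% of 21277 genes were. None of the 7 was at least 2-fold lower in KO, against 6.28% of 22085 genes, although 5 of 7 were at least 1.5-fold lower there, against 13% of genes. At 1.5-fold, 6 of 7 were lower in WT, against 10.7% of genes. The median log2 ratio of 6 over 3 weeks was -0.78 in KO and -1.17 in WT for the 7 genes, and 0.05 in KO and 0.01 in WT over all genes tested. Markers of other cells differed between the ages too, though not all were lower at 6 weeks in both genotypes. Kupffer cell markers had medians of -0.70 in KO and -0.05 in WT, and endothelial markers -0.54 in KO and -0.08 in WT. Skeletal muscle markers had medians of -0.89 in KO and 1.03 in WT. Of 4 erythroid markers measured, 3 in KO and 4 in WT were at least 2-fold lower at 6 than at 3 weeks, with medians of -2.76 in KO and -2.69 in WT. All 6 dividing-cell markers were at least 2-fold lower in both genotypes, with medians of -3.60 in KO and -1.91 in WT. The part of all these markers in the age ratios of the 7 genes was not tested. The hepatocyte markers had medians of 0.15 in KO and -0.07 in WT. The KO count at 2-fold depends on the scaling: it was 1 with quantile normalization and 2 with normexp background correction before it.

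**Figure D1:**
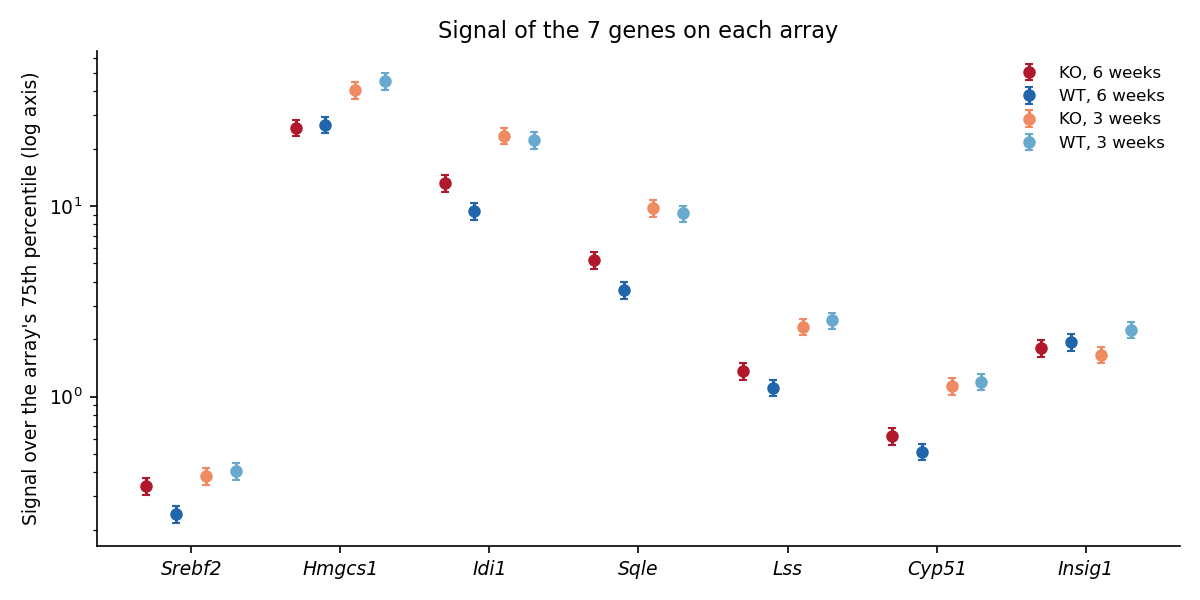
Signal of each gene's brightest probe on the 4 arrays, relative to the array's 75th percentile, on a log axis; bars are the scanner software's error of the spot. For Srebf2, Hmgcs1, Idi1, Sqle, Lss and Cyp51 both 6-week arrays lie below both 3-week arrays, whereas Insig1 shows no such order. The KO arrays of Srebf2 lie within their spot errors of each other. Heights are to be read within a gene and not between genes.

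The regulator comes first. Srebf2, which encodes SREBP2, was read by a pair of probes at chromosome 15 of build mm9, the brighter at positions 82034765 to 82034824. Its signal was 0.339 in KO and 0.241 in WT at 6 weeks, and 0.383 in KO and 0.405 in WT at 3 weeks. The 6-week WT array was the low one, and the 6-week KO array and the 3-week KO array lay within their spot errors of each other. The log2 ratio of KO over WT was 0.49 ± 0.20 at 6 weeks and -0.08 ± 0.20 at 3 weeks (error from the scanner software, as below). That of 6 over 3 weeks was -0.18 ± 0.20 in KO and -0.75 ± 0.20 in WT. The dimmer probe read 0.227 in KO and 0.123 in WT at 6 weeks, and 0.161 in KO and 0.181 in WT at 3 weeks. The probes had the same order of KO and WT at each age but disagreed on the ages in KO, where the dimmer one was higher at 6 weeks, with a log2 ratio of 0.50 ± 0.21.

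Insig1, which retains SCAP and SREBP2 in the endoplasmic reticulum and is itself an SREBP2 target, ran apart from the other genes. Its signal was 1.80 in KO and 1.94 in WT at 6 weeks, and 1.66 in KO and 2.25 in WT at 3 weeks. The 3-week WT array was highest, and the other arrays lay close together. The log2 ratio of KO over WT was -0.10 ± 0.20 at 6 weeks and -0.44 ± 0.20 at 3 weeks, the lowest of the 7 at each age. Between 6 and 3 weeks it was 0.12 ± 0.20 in KO and -0.22 ± 0.20 in WT.

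The first enzyme, Hmgcs1, condenses acetyl-CoA with acetoacetyl-CoA into HMG-CoA in the cytosol. Its brighter probe read 25.8 in KO and 26.7 in WT at 6 weeks, and 40.6 in KO and 45.2 in WT at 3 weeks. KO and WT lay within the spot error of each other at both ages, the log2 ratio being -0.06 ± 0.20 at 6 weeks and -0.15 ± 0.20 at 3 weeks. Between ages the log2 ratio was -0.66 ± 0.20 in KO and -0.76 ± 0.20 in WT. A second, far dimmer probe gave 0.46 ± 0.28 for KO over WT at 6 weeks, so the probes differed in sign there.

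Idi1, isopentenyl-diphosphate isomerase, supplies the activated isoprene units. Its signal was 13.2 in KO and 9.38 in WT at 6 weeks, and 23.4 in KO and 22.2 in WT at 3 weeks. Both 6-week arrays were low, and WT was the lower of them. KO over WT was 0.49 ± 0.20 on the log2 scale at 6 weeks and 0.07 ± 0.20 at 3 weeks, and 6 over 3 weeks was -0.83 ± 0.20 in KO and -1.25 ± 0.20 in WT.

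Sqle, squalene epoxidase, carries out the first oxygenation of the sterol branch and is a rate-limiting step there. Its signal was 5.21 in KO and 3.62 in WT at 6 weeks, and 9.74 in KO and 9.14 in WT at 3 weeks. At 6 weeks KO exceeded WT by a log2 ratio of 0.53 ± 0.20, the largest of the 7 at that age, and at 3 weeks by 0.09 ± 0.20. The log2 ratio of 6 over 3 weeks was -0.90 ± 0.20 in KO and -1.34 ± 0.20 in WT, the lowest of the 7 in each genotype.

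Lss, lanosterol synthase, closes the sterol rings. Its signal was 1.36 in KO and 1.11 in WT at 6 weeks, and 2.33 in KO and 2.51 in WT at 3 weeks. KO over WT was 0.28 ± 0.20 at 6 weeks and -0.11 ± 0.20 at 3 weeks, and 6 over 3 weeks was -0.78 ± 0.20 in KO and -1.17 ± 0.20 in WT.

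Cyp51, lanosterol 14-alpha-demethylase, begins the trimming of lanosterol. Its signal was 0.619 in KO and 0.515 in WT at 6 weeks, and 1.13 in KO and 1.20 in WT at 3 weeks. KO over WT was 0.27 ± 0.20 at 6 weeks and -0.08 ± 0.20 at 3 weeks, and 6 over 3 weeks was -0.87 ± 0.20 in KO and -1.22 ± 0.20 in WT. Lss, Cyp51 and the brighter Srebf2 probe thus had the same order of arrays, with WT lowest at 6 weeks and highest at 3 weeks. For each of them, KO and WT at 3 weeks lay within the spot error of each other.

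**Figure D2:**
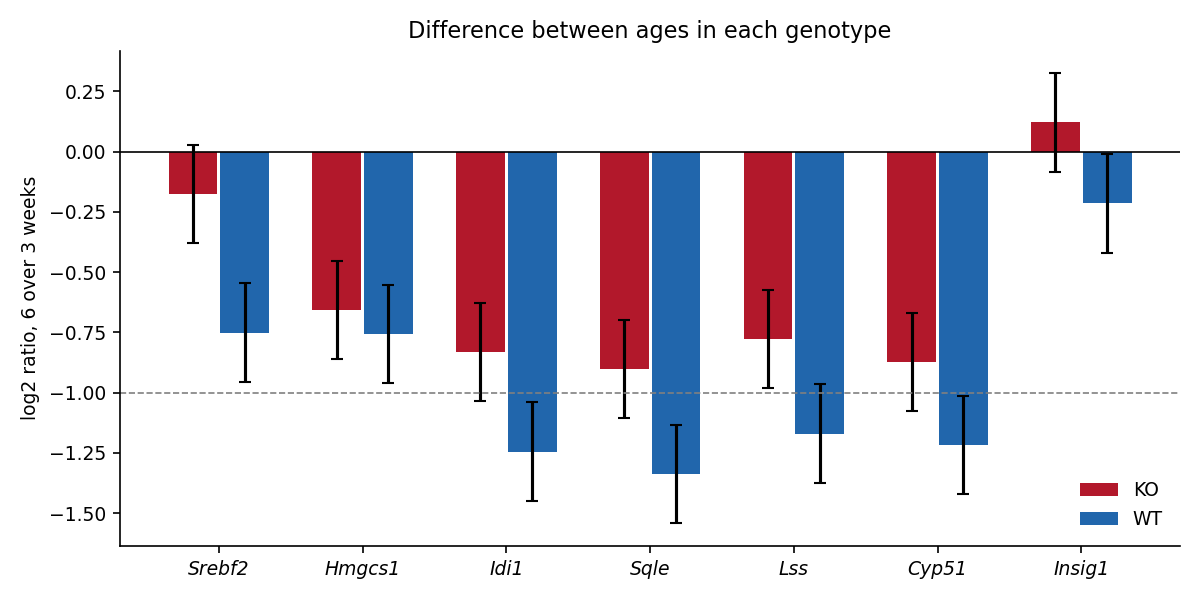
log2 ratio of 6 over 3 weeks for each gene's brightest probe, in KO (left bar) and WT (right bar), with the scanner software's error of the ratio; the dashed line marks 2-fold lower. Idi1, Sqle, Lss and Cyp51 pass the line in WT and in KO none does, and each gene's KO value lies above its WT value.

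Between genotypes no member was 2-fold or even 1.5-fold apart at either age by its brightest probe. The dimmer Srebf2 probe had 0.88 ± 0.21 for KO over WT at 6 weeks, and the mean of both its probes 0.69, which is past 1.5-fold. At 6 weeks 6.1% of 21494 genes were at least 2-fold higher in KO and 4.55% at least 2-fold lower, and at 3 weeks 2.87% of 21872 genes were higher and 2.89% lower. At 1.5-fold, 12% were higher and 10.4% lower at 6 weeks, and 5.05% higher and 5.49% lower at 3 weeks. At 6 weeks 5 of 7 members had a log2 ratio of KO over WT above 0, against 55.5% of genes, and the members' median was 0.28, against 0.05 over all genes. At 3 weeks 2 of 7 were above 0, against 49.1% of genes, with a median of -0.08 against 0.00. The 6-week ratio exceeded the 3-week ratio in 7 of 7, against 56.9% of 18959 genes. That difference ranged from 0.10 ± 0.29 for Hmgcs1 to 0.58 ± 0.29 for Srebf2 on the log2 scale, with a median of 0.39 against 0.06 over all genes, and none was 4-fold, which 0.839% of genes reached upward and 0.686% downward. With quantile normalization the Hmgcs1 difference was -0.03 and 6 of 7 were above 0. Hepatocyte markers shifted the same way, with a difference above 0 in 9 of 9 measured. So did 14 of 16 other cholesterol synthesis genes and 9 of 10 LDL uptake genes. Only 3 of 13 SREBP1 lipogenic genes and 0 of 7 Kupffer cell markers did. The hepatocyte median was 0.19 for this difference and 0.21 for KO over WT at 6 weeks. With quantile normalization these were -0.05 and 0.02. The ratios between ages and between genotypes are made from the same 4 arrays, so they restate each other: a KO value above the WT value in the difference between ages is the same measurement as a 6-week ratio above the 3-week one.

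A limma fit over all features, with age and genotype as additive terms and 1 residual degree of freedom, called no gene for either term. Over 22766 genes the smallest adjusted p was 0.472 for genotype, with 1013 genes at an unadjusted p under 0.05, and 0.403 for age, with 2317. In that limma fit the age effect of Sqle was -1.12 ± 0.20 (SE) with an adjusted p of 0.446, and the others ran from -1.04 for Cyp51 and Idi1 to -0.05 for Insig1 (adjusted p from 0.446 to 0.919). The genotype effect ran from -0.27 for Insig1 to 0.31 for Sqle (limma adjusted p from 0.914 to 0.939). In this fit the ages stand in for replicates of genotype, and the genotypes for replicates of age. A KO over WT ratio that differs between the ages counts as error there, so the fit cannot test it. No member passed for either additive term.

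The remaining pathway was read from a list of 16 other cholesterol synthesis genes, each of which was measured above background on every array. At 6 weeks 3 of 16 were at least 2-fold higher in KO than in WT, against 6.1% of all genes. That count depends on the setting, because Mvk lay close to the threshold. None was 2-fold lower, against 4.55%. At 3 weeks none was 2-fold apart, against 2.87% of genes higher and 2.89% lower. Between ages 5 of 16 were at least 2-fold lower at 6 weeks in WT, against 5.47% of genes, and none in KO, against 6.28%. These shares apply to the lists below as well. The list's median log2 ratio of KO over WT was 0.29 at 6 weeks and -0.16 at 3 weeks, and that of 6 over 3 weeks was -0.31 in KO and -0.74 in WT.

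Among the early steps, Mvk, mevalonate kinase, read 6.53 in KO and 3.20 in WT at 6 weeks, and 8.16 in KO and 7.76 in WT at 3 weeks. The 6-week WT array was the low one, and KO over WT at 6 weeks was 1.03 ± 0.20 on the log2 scale. This Mvk ratio fell just under 2-fold, to 0.99 with quantile normalization and 0.98 with the mean of all probes. Mvd, which makes isopentenyl diphosphate, read 1.23 in KO and 0.809 in WT at 6 weeks, and 1.61 in KO and 2.35 in WT at 3 weeks, with log2 ratios of opposite sign, 0.60 and -0.54. The kinase Pmvk between them stood at -0.19 and -0.31, and Fdps, farnesyl diphosphate synthase, at -0.01 and -0.19. Acat2, which makes acetoacetyl-CoA, ran against the list, with -0.54 for KO over WT at 6 weeks and higher signal at 6 than at 3 weeks, by 0.62 in KO and 0.95 in WT. Fdft1, squalene synthase, had 0.48 at 6 weeks and -0.01 at 3 weeks, the first of which was 0.19 with the mean of all its probes.

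Among the late steps, Msmo1 (listed as Sc4mol on the array), which removes methyl groups from the sterol at carbon 4 together with Nsdhl, was the most different. It read 29.3 in KO and 9.77 in WT at 6 weeks, and 28.1 in KO and 26.9 in WT at 3 weeks. The 6-week WT array stood alone, and the log2 ratio of KO over WT was 1.59 ± 0.20 at that age, against 0.07 ± 0.20 at 3 weeks. Its partners in the same reaction sequence differed less at 6 weeks, with Nsdhl at 0.18 and Hsd17b7 at 0.63. Dhcr7, a late sterol reductase, stood at 0.54 at 6 weeks and -0.15 at 3 weeks. Tm7sf2 and Lbr, which act after Cyp51, stood at 0.03 and -0.06 at 6 weeks, Ebp at 0.16 and Sc5d at -0.45. Ebp and Tm7sf2 turned to negative values with quantile normalization.

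**Figure D3:**
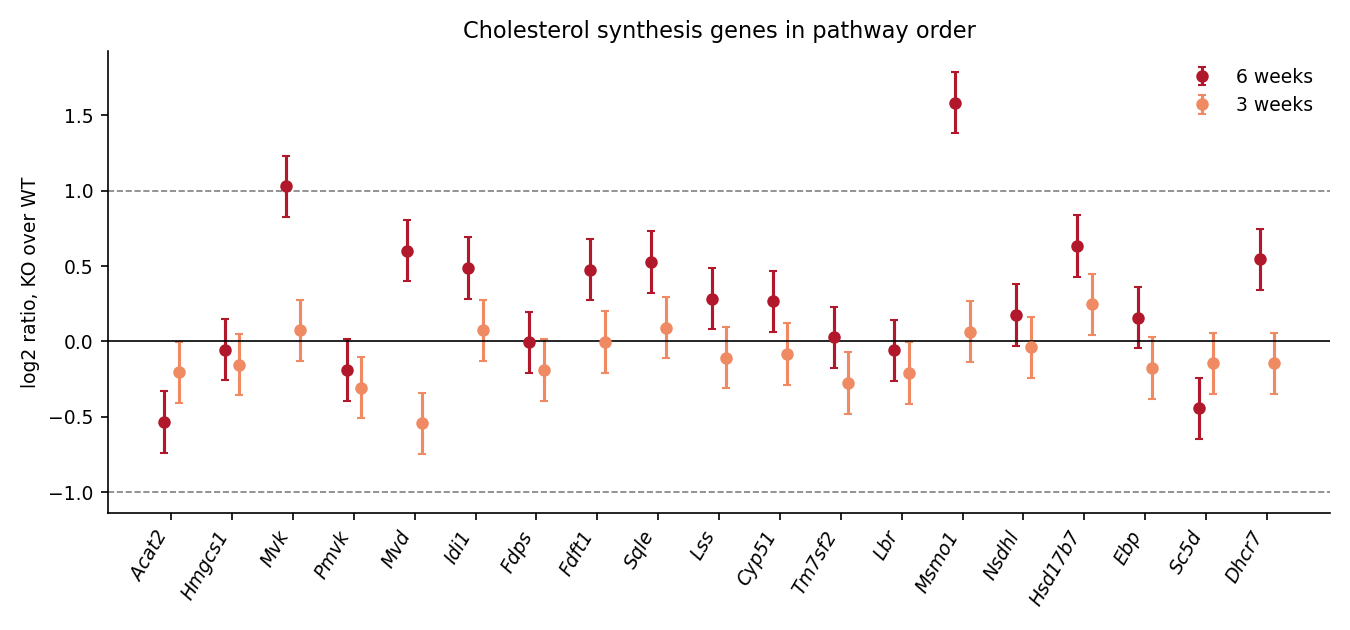
log2 ratio of KO over WT at 6 weeks (dark, left) and 3 weeks (light, right) for cholesterol synthesis genes from acetoacetyl-CoA to cholesterol, with the scanner software's error; dashed lines mark 2-fold. Msmo1 and Mvk lie above the upper line at 6 weeks, Mvd has opposite signs at the 2 ages, and Acat2 and Sc5d have the lowest values at 6 weeks.

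The proteins that control SREBP cleavage and sterol-driven degradation were a list of 11 genes, with a median of 0.02 at both ages for KO over WT. Scap stood at 0.02 and Mbtps1, the Golgi protease that makes the first cut, at -0.10 at 6 weeks. Insig2 stood at -0.41 at 6 weeks and 0.23 at 3 weeks, and Srebf1 at -0.31 and -0.40. The ubiquitin ligase Rnf145 was the one gene of the list at least 2-fold lower in KO at 6 weeks, with a signal of 0.462 in KO and 1.02 in WT and 1.22 in KO and 1.08 in WT at 3 weeks. Its log2 ratio was -1.14 ± 0.20 at 6 weeks and 0.17 ± 0.20 at 3 weeks, and the 6-week KO array alone was low. The ligase Marchf6 stood at 0.57 at 6 weeks and -0.26 at 3 weeks, Rnf139 at 0.14 and -0.11, and Fbxw7 at 0.03 and 0.02. Mbtps2, the second protease, was not well above background in WT at 3 weeks and its probes disagreed, so its ratio is only a bound that depends on the scaling.

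LDL uptake and the onward handling of its cholesterol were a list of 10 genes, none at least 2-fold apart between KO and WT at either age, with a median of 0.19 at 6 weeks and -0.08 at 3 weeks. Npc1, which moves LDL cholesterol out of lysosomes, had the highest ratio. It read 3.72 in KO and 1.89 in WT at 6 weeks, and 1.41 in KO and 1.37 in WT at 3 weeks, with log2 ratios of 0.97 ± 0.20 and 0.04 ± 0.20. It was higher at 6 than at 3 weeks, by 1.40 in KO and 0.47 in WT. Npc2, its partner in the lysosome, stood at -0.11 at 6 weeks, and Lipa, the lysosomal acid lipase, at -0.61. Scarb1, the HDL receptor, stood at 0.69 at 6 weeks and 0.36 at 3 weeks. Mylip, the ligase that degrades LDL receptor family members, Lrp1 and Stard4 lay between 0.05 and 0.23 at 6 weeks, and all of these 3 changed sign with the mean of all their probes.

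Cholesterol also leaves the liver cell as bile acid or through transporters. Of 13 genes of efflux, esters and bile acid synthesis, 1 was at least 2-fold higher in KO at 6 weeks and none at 3 weeks. It was Cyp7a1, the rate-limiting enzyme of bile acid synthesis, with 6.55 in KO and 2.24 in WT at 6 weeks, and 11.04 in KO and 10.74 in WT at 3 weeks. The log2 ratio of KO over WT was 1.55 at 6 weeks and 0.04 at 3 weeks, and that of 6 over 3 weeks was -0.75 in KO and -2.26 in WT. Cyp8b1 stood at 0.88, the sterol exporter Abcg5 at 0.57 and the esterifying enzyme Soat1 at -0.66 for KO over WT at 6 weeks.

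The lipogenic genes driven mainly by SREBP1, the sister factor of SREBP2, had a median of the other sign at 6 weeks and of the same sign at 3 weeks. Of 13, 4 at 6 weeks and 1 at 3 weeks were at least 2-fold lower in KO and none was 2-fold higher, and the list's median log2 ratio was -0.67 at 6 weeks, against -0.45 at 3 weeks. They were Pnpla3 at -2.10, the elongase Elovl5 at -1.30, malic enzyme Me1 at -1.21 and Acly, ATP citrate lyase, at -1.08 at 6 weeks. In all, 12 of 13 lay below 0 at 6 weeks, and the exception, Thrsp, named after its value was seen, stood at 0.61. Acly read 25.2 in KO and 53.3 in WT at 6 weeks, and 35.8 in KO and 43.9 in WT at 3 weeks. With quantile normalization the medians at 6 weeks were 0.29 for the 7 genes, 0.19 for the other synthesis genes and -0.80 for the lipogenic genes.

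**Figure D4:**
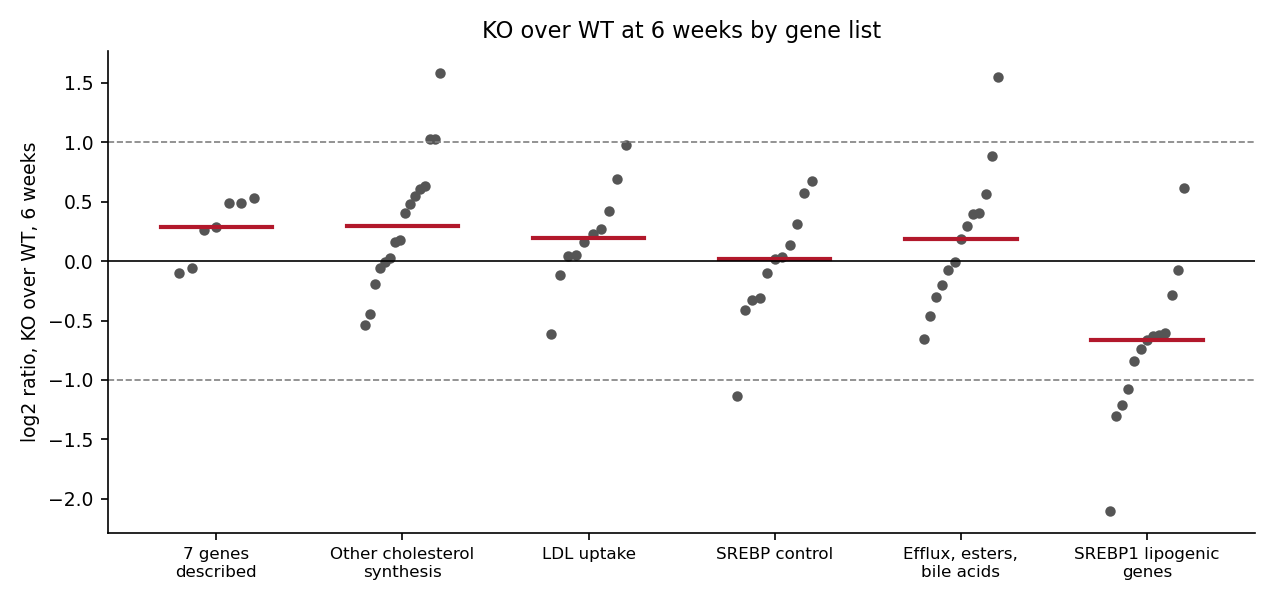
log2 ratio of KO over WT at 6 weeks for each gene of 6 lists (points, ordered by value within a list) with the list's median (red line); dashed lines mark 2-fold. The medians of the 7 genes and of the other cholesterol synthesis genes lie at 0.28 and 0.29 and that of the SREBP1 lipogenic genes at -0.67.

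Genes of daily rhythm also differed between the 6-week arrays. Of 16 clock genes measured, 7 had a 2-fold or larger excess in KO at 6 weeks and 3 a 2-fold or larger deficit, with a median log2 ratio of 0.89, and at 3 weeks none was higher and 1 lower, with a median of -0.07. Ciart, a clock repressor, read 0.605 in KO and 0.077 in WT at 6 weeks, and 0.180 in KO and 0.174 in WT at 3 weeks. Per3 stood at 1.94, Cry2 at 1.37 and Per1 at 1.35 at 6 weeks. The time of day at which livers were taken was not stated in the labels, and the part of the clock genes or of the dividing-cell, Kupffer, endothelial or muscle markers in the ratios of the cholesterol genes was not tested. Of 10 genes of the fasting response, 2 were higher and 1 was lower in KO by 2-fold or more at 6 weeks, with a median of 0.37, and none was 2-fold apart at 3 weeks, with a median of 0.23.

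The genes whose pattern over the 4 arrays was most like the mean of the 7 were taken from 14016 that had a symbol and signal well above background throughout. Likeness was the root mean square difference between log2 values, each centred on its own mean. The nearest were Zfp473, Pbx3, Fndc10, Mphosph6, Clip3, Cltrn, Ddx39a and Bex3, at 0.031 to 0.056. Pbx3 read 0.359 in KO and 0.308 in WT at 6 weeks, and 0.519 in KO and 0.576 in WT at 3 weeks. Zfp473, the nearest, was dim, at 0.028 in KO and 0.023 in WT at 6 weeks, and 0.040 in KO and 0.042 in WT at 3 weeks. The 7 genes themselves lay farther from their own mean, at 0.102 for Lss to 0.404 for Insig1. That order follows from the choice, because the nearest genes were picked for their small distance. With 4 arrays the measure rests on few points.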

How the data were processed

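Total liver RNA, pooled from 5 animals, was amplified, labelled with Cy3 and hybridised, per the labels. The submitters' processing notes name Agilent Feature Extraction 11.5.1.1. The deposited intensity values have the background subtracted and are not scaled between arrays, per the file headers. Other deposited columns are flags that, per the file headers, mark outlier and well-above-background spots. The value table the authors deposited equals this intensity over the array's 75th percentile. Its column medians were 0.0798 (KO, 6 weeks), 0.0778 (WT, 6 weeks), 0.0815 (KO, 3 weeks) and 0.0797 (WT, 3 weeks).

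The log2 intensity minus that of the array's 75th percentile was used. Of 43020 spots per array, 189 to 252 outliers were left out, 28714 to 30697 were well above background and none was saturated. Of 39429 probes, 27502 were named by accession through RefSeq and 11927 kept the file's name. The brightest probe stood for a gene. Genes well above background on at least 1 compared array were counted at 2-fold, a dim array's value being raised to its lowest spot well above background. Genes were named as the 7 members, Pnpla7, the 3 closest lists, up to 4 genes of other lists by size of ratio, and the 8 nearest patterns. Some of the genes so chosen are not reported here. Members and lists were chosen with earlier results of these data known. Alternatives were other scalings, filters, probe rules and thresholds. The steps were tested on simulated data. limma 3.58.1 in R 4.3.3 with Benjamini-Hochberg adjustment, Python 3.11.15, numpy 2.4.6 and pandas 2.3.3 were used. The number of arrays limits the precision.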

Additional observations from a re-analysis of the deposited data

Results flagged for a closer look

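The search covered Pnpla7, the members and the reported genes of the other cholesterol synthesis, SREBP control and LDL uptake lists. In 5 of these genes a ratio had opposite signs at the 2 ages or in the 2 genotypes. Both values were larger in size than 0.20, the spot error of a log2 ratio. Genes with a smaller value on one side were not counted. Genes of the remaining lists were not searched, although some, such as Cyp8b1 at 0.88 and -0.39 for KO over WT, also changed sign. With 1 array per group, none of these differences was tested. For KO over WT, the log2 ratio of Mvd was 0.60 at 6 weeks and -0.54 at 3 weeks, and Marchf6 at 0.57 and -0.26. Insig2 stood at -0.41 at 6 weeks and 0.23 at 3 weeks. For 6 over 3 weeks, Insig2 stood at -0.24 in KO and 0.39 in WT. The targeted gene Pnpla7 stood at -0.60 in KO and 0.36 in WT. The dimmer probe of Srebf2 stood at 0.50 in KO and -0.55 in WT, whereas its brighter probe had the same sign in both.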

How the results depend on the processing

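The number of the 7 genes at least 2-fold lower at 6 than at 3 weeks in KO was 0, and became 1 with quantile normalization, 2 with normexp and quantile normalization and 5 at a threshold of 1.5-fold. The number of genes that limma called higher in KO was 0, and became 4 with a trend in the variance prior. The cause was not tested. All other counts of the 7 genes at 2-fold or 4-fold, and all their medians, kept their direction and lay within the limits set for a change. The settings were median scaling, the authors' value table, outlier spots kept, the mean of all probes, and stricter or no filters. Some of these could not change a result of the 7 genes. The authors' value table equals the values used, and the filters do not act on genes well above background on every array. Counts by sign and at 1.5-fold were not held to these limits. With the mean of all probes, 6 of 7 rather than 5 had KO over WT above 0 at 6 weeks. For 6 over 3 weeks in KO, 2 rather than 1 lay above 0, and Hmgcs1 at -0.44 was no longer 1.5-fold lower. There the log2 ratio of KO over WT at 6 weeks turned to 0.20 for Hmgcs1 and that of 6 over 3 weeks in KO to 0.16 for Srebf2, through their dimmer probes. The bound for Mbtps2, KO over WT at 3 weeks, was 1.30 and became -0.041 with quantile normalization, for which the cause was not tested. No replicate could be left out, since each group is 1 array. No paired analysis was possible because each group is 1 array and the labels carry no replicate numbers.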
